A study of Mus musculus with 10 samples.

Results

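The enzymes that make and break down serine, glycine and threonine were followed in livers of mice with and without the glucagon receptor. They were taken as 10 named genes: the serine and threonine dehydratases Sds and Sdsl, threonine dehydrogenase Tdh, the glycine cleavage genes Gldc, Amt and Gcsh, the serine hydroxymethyltransferases Shmt1 and Shmt2, and the serine synthesis genes Phgdh and Psat1. A gene counted as measured where a probe belonged to it, whatever its signal. All 12 probes found were matched by the RefSeq accession in the array files, which was tried before symbols and older synonyms. This gave 9 of the 10 genes among 27670 named genes on the array. No probe was matched to Amt, which was not analysed here. All 9 genes were well above background in all 10 livers, none was saturated, and all 9 were among the 18921 genes tested.

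Gene expression was compared between livers of 5 wild-type mice (WT, genotype wt/wt, 3 males and 2 females) and 5 mice lacking Gcgr, the receptor through which the fasting hormone glucagon acts on the liver (KO, 2 males and 3 females). Each array held Cy5-labelled RNA of 1 liver and a Cy3-labelled universal mouse reference RNA, a commercial pool, and every value below is a log2 ratio of liver over that reference unless stated otherwise. Strain, age, feeding state and the deleted part of Gcgr are not given in the sources used here. The labels number the livers and do not say whether cagemates or littermates were used, so the p-values measure the spread between these livers. Whole-liver RNA was measured, in which fewer cells of a type and less RNA per cell cannot be told apart.

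Serine is made in the cytosol from a glycolytic intermediate, by Phgdh, Psat1 and the phosphatase Psph. The 2 hydroxymethyltransferases, Shmt1 in the cytosol and Shmt2 in mitochondria, move a carbon between serine and glycine and load it onto folate, and the mitochondrial glycine cleavage system takes glycine apart to carbon dioxide, ammonia and another folate-bound carbon. Sds turns serine into pyruvate, and threonine into oxobutyrate, releasing ammonia. In liver it lets these amino acids feed glucose synthesis, and fasting, glucagon and protein-rich diets are known to raise it.

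The label check held in every liver. Gcgr lay between 7.74 and 8.14 in the WT group and between 0.28 and 0.36 in the KO group (log2 fold change -7.66, SE 0.08, adjusted p = 1.1e-13). Arrays lay on 4 slides. Slide 1 held WT 1, WT 2, KO 1 and KO 2, slide 2 KO 3 and KO 4, slide 3 WT 3, WT 4 and KO 5, and slide 4 WT 5. The array median of net Cy5 reached 111 to 133 for slides 1 and 2, against 58.6 to 78.7 for slides 3 and 4. All 8 hepatocyte markers on the array were well above background in all livers, and 1 of them, the amino acid enzyme Tat, was lower in KO. The 8 endothelial markers averaged 2.90 to 3.48 in WT and 3.57 to 3.85 in KO livers, with 3 of them (Lyve1, Pecam1 and Oit3) higher in KO. The 7 periportal hepatocyte markers averaged 5.97 to 6.78 in WT and 5.57 to 5.86 in KO livers, with Ass1 and Gls2 lower. Of the 8 pericentral markers Slc1a2 and Lgr5 were lower, with averages of 4.08 to 4.56 in WT and 4.0 to 4.19 in KO livers. No Kupffer cell, stellate cell, bile duct, lymphocyte, neutrophil, erythroid, adipocyte or pancreatic marker passed, and 1 kidney tubule marker, Umod, was lower. The neutrophil markers averaged -0.04 to 0.49 in WT and 0.25 to 2.0 in KO livers. The part of these cell types in the results below was not tested.

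With genotype and sex in the limma model and adjustment over all genes, 3 of the 9 enzymes were lower in KO livers (Sds, Sdsl and Shmt2) and none was higher. Across all genes 3.08% were called lower and 2.88% higher. At an unadjusted p under 0.05, 5 of the 9 differed in either direction, against 20.9% of all genes. The median log2 fold change of the 9 was -0.18, against -0.00282 for all genes tested, and 6 of the 9 were below 0. In the same 3 genes every KO liver lay below every WT liver, a pattern seen in 3.08% of all genes.

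**Figure D1:**
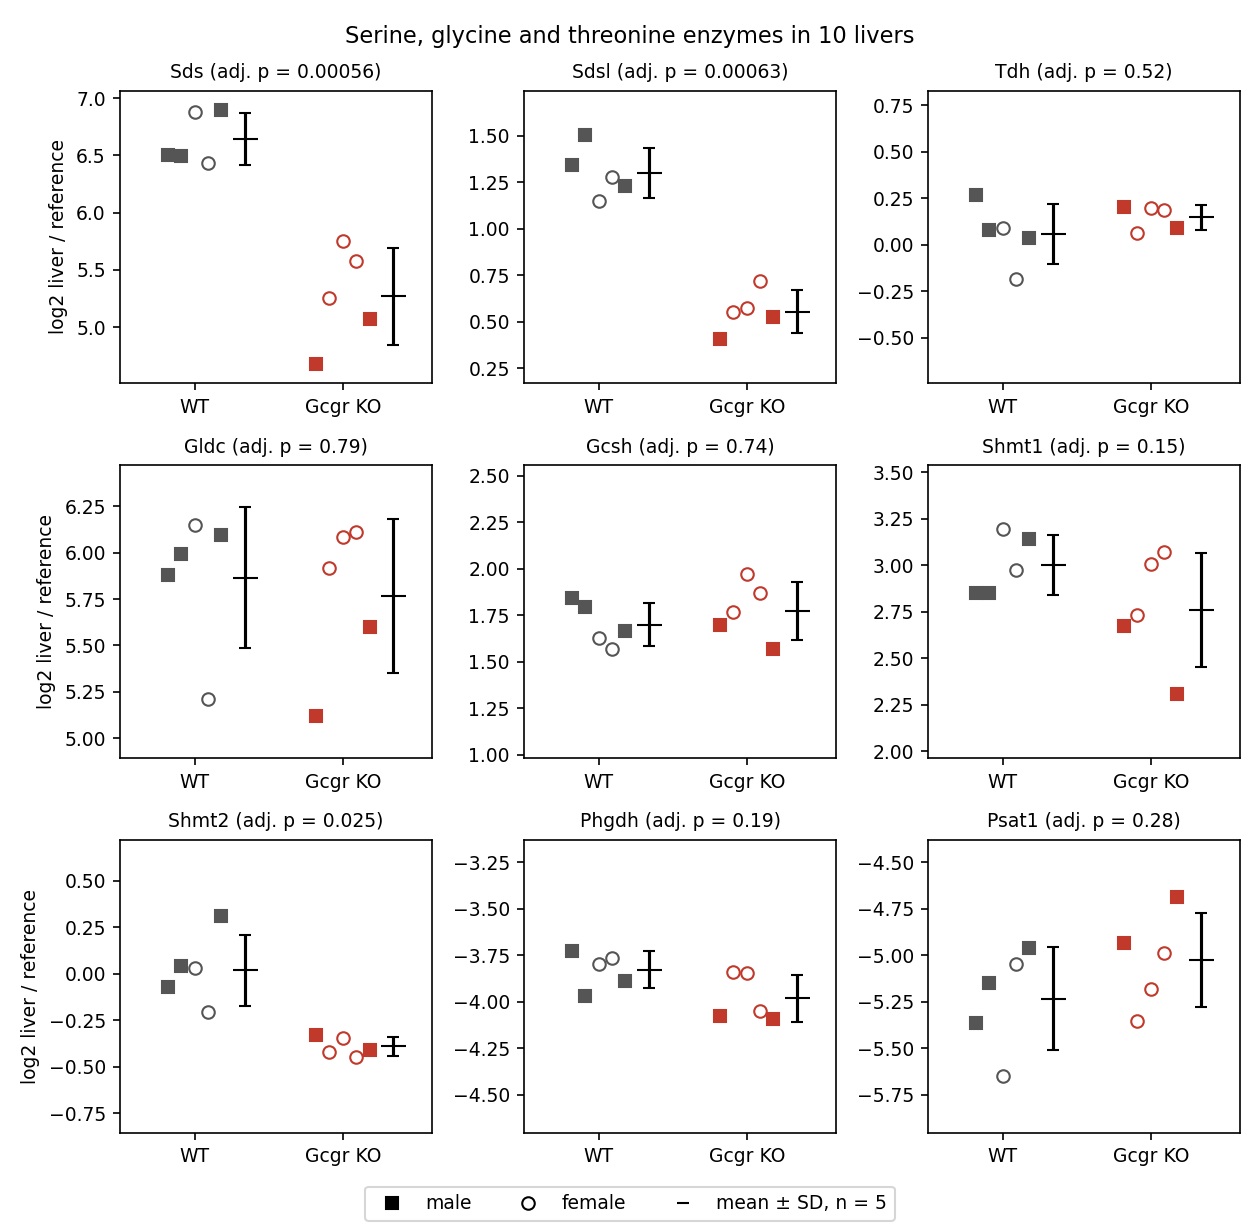
Log2 ratio of liver over reference for the 9 measured enzymes, 1 point per liver (squares males, open circles females), with the mean and SD of 5 livers beside each group; every panel spans at least 1.5 log2 units and its title gives the limma adjusted p. The WT and KO points of Sds, Sdsl and Shmt2 do not overlap, and those of the other 6 genes do.

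Sds, the serine dehydratase, fell most among the 9. WT livers 1 to 5 read 6.50, 6.50, 6.88, 6.44 and 6.90, and KO livers 1 to 5 read 4.68, 5.25, 5.76, 5.58 and 5.07. The groups do not overlap: the highest KO liver, a female, was 0.68 below the lowest WT liver. The means were 6.64 ± 0.23 and 5.27 ± 0.42 (SD, n = 5 each). With sex in the model the log2 fold change was -1.44 (SE 0.16, 95% interval -1.80 to -1.09, adjusted p = 0.000556), so that KO livers held 36.7% of the WT level, and Sds ranked 67th of all genes by p. Coordinates here follow the array files (mouse build mm7), which place the Sds probe at chromosome 5, 119717082 to 119717141; exons of that build were not looked up.

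The 2 channels of the Sds probe were also read apart. Net Cy5, the liver's own signal, read 14839, 14614, 16233, 14054 and 9159 across the WT livers from 1 to 5, and 2814, 4427, 7852, 6190 and 2142 across the KO livers. The reference was dim at this probe, with net Cy3 of 86.3 to 197 on the WT arrays and 42.5 to 101 on the KO arrays. Every array received the same reference, yet its signal at this probe was lower on 4 of the 5 KO arrays than on any WT array. The reason was not tested. The log2 fold change was -2.04 (adjusted p = 3.15e-06) in Cy5 alone and -0.77 (adjusted p = 0.00565) in the scanner software's own log ratio, so the direction held while the size moved by more than 1.5 times in the latter. Sds passed in all 25 alternative settings that gave a test, though some of these left its log ratios as they were.

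Sdsl is a close relative of Sds. WT livers 1 to 5 had log2 ratios of 1.34, 1.51, 1.15, 1.28 and 1.23, against 0.41, 0.55, 0.57, 0.72 and 0.53 for KO livers 1 to 5. All 5 KO livers were below all WT livers, and the spread within each group was small beside the gap. The means were 1.30 ± 0.14 and 0.56 ± 0.11 (SD, n = 5 each). The log2 fold change was -0.75 (SE 0.09, 95% interval -0.94 to -0.56, adjusted p = 0.000627), or 1.68-fold lower. Its probe lies at 119692369 to 119692428 on chromosome 5 (mm7). The reference signal there was 786 to 982 on WT and 814 to 961 on KO arrays, and the scanner's log ratio gave -0.74. The fall did not pass with median centring in place of loess (-0.63, adjusted p = 0.0724).

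**Figure D2:**
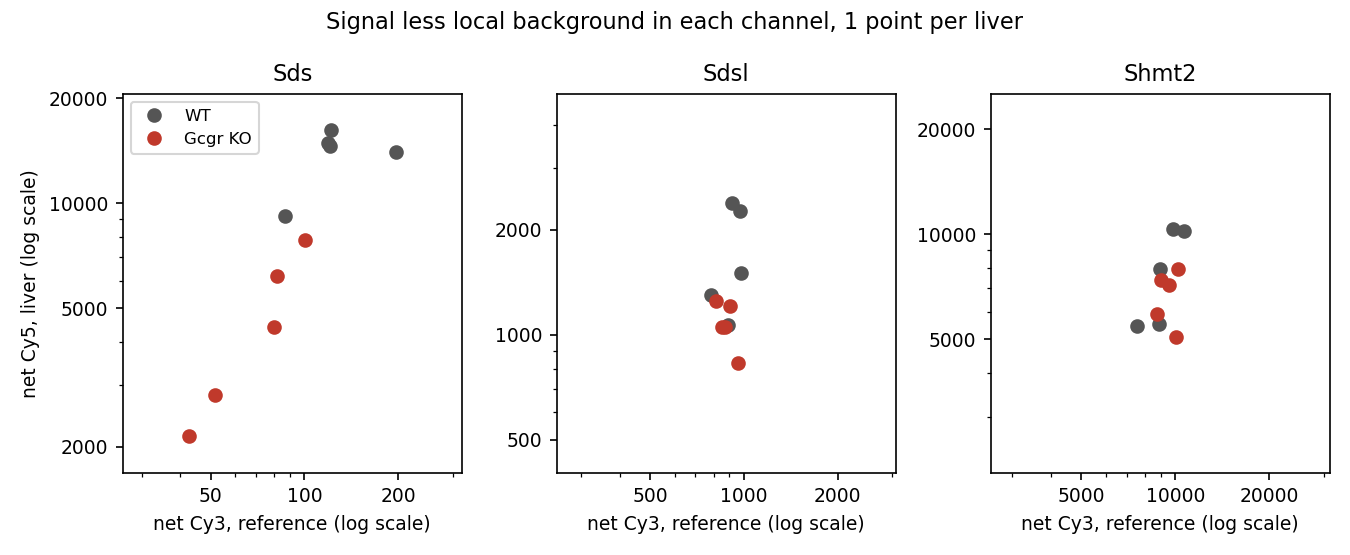
Net signal (spot mean less local background median) in Cy5, the liver, against Cy3, the common reference, for Sds, Sdsl and Shmt2, on log axes of equal span, 1 point per liver (grey WT, red KO). For Sds the WT arrays lie at 86.3 to 197 and the KO arrays at 42.5 to 101 on the Cy3 axis; for Sdsl and Shmt2 the groups overlap on that axis, and net values are not scaled between arrays.

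Sds and Sdsl are next to each other on chromosome 5 in RefSeq (assembly GRCm38.p6), with no other protein-coding gene listed between them. The 3 protein-coding neighbours on either side were looked up to see how far along the chromosome the fall went. Plbd2, the neighbour on the side of Sds, was higher in KO livers (0.57, SE 0.07, adjusted p = 0.000852). Slc8b1 (0.35, adjusted p = 0.0848) and Tpcn1 (0.17, adjusted p = 0.32) beyond it did not pass. On the side of Sdsl, Rbm19 did not pass (-0.14, adjusted p = 0.306), and Lhx5 and Tbx5 were below the signal filter. Both dehydratases thus fell, while the measured gene beside Sds rose.

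The difference in size between the 2 dehydratases was examined within each array, a comparison chosen after the values were seen. Sds minus Sdsl was 5.34 ± 0.34 in WT and 4.71 ± 0.34 in KO livers (SD, n = 5 each), a change of -0.63. A two-sided exact permutation test gave p = 0.0317, or 0.0635 adjusted over the 2 enzyme pairs compared (0.00794 is the smallest p this design allows). The permutation tests of both pairs leave out sex, which was unbalanced between the groups. The unequal fall of the dehydratases did not pass after adjustment, and the size of the Sds change depends on the channel read.

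Shmt2, the mitochondrial hydroxymethyltransferase, had the third fall, which was small. The WT values, from liver 1 to liver 5, were -0.07, 0.04, 0.03, -0.21 and 0.31, and the KO values -0.33, -0.42, -0.35, -0.44 and -0.41. The KO livers lay close together below all WT livers, but WT 4 was only 0.12 above the highest KO liver. The means were 0.02 ± 0.19 and -0.39 ± 0.05 (SD, n = 5 each), and the log2 fold change was -0.39 (SE 0.09, 95% interval -0.58 to -0.20, adjusted p = 0.0247), or 1.31-fold lower. The call was lost in 6 of 25 settings, among them without WT 3 (adjusted p = 0.0871), KO 1 (0.0746), KO 4 (0.0586) or KO 5 (0.0641) and with median centring (0.295), while the log2 fold change stayed between -0.45 and -0.33. The probe lies on chromosome 10 at 127019144 to 127019203 (mm7).

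Shmt1, the cytosolic counterpart, had 2 probes that straddled the threshold. At the brighter one, which stood for the gene, WT livers 1 to 5 had 2.85, 2.85, 3.19, 2.97 and 3.14, and the KO livers in the same order 2.67, 2.73, 3.01, 3.07 and 2.31. The groups overlap, since KO 3 and KO 4 lie among the WT livers. The log2 fold change was -0.30 (SE 0.11, 95% interval -0.55 to -0.05, adjusted p = 0.153). The second probe (chromosome 11, 60880152 to 60880211, mm7) went from 2.18 ± 0.16 to 1.87 ± 0.20, or -0.35 (SE 0.09), with an adjusted p of 0.0386 over all probes, also with overlapping groups. Shmt2 minus Shmt1 was -2.98 ± 0.18 in WT and -3.15 ± 0.31 in KO livers (SD, n = 5 each; change -0.17, two-sided exact permutation p = 0.341, adjusted 0.341), so an unequal change of the isozymes was not detected.

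The upstream sequences of these isozymes are shown because Shmt2 is the one enzyme of the 3 that fell whose promoter is in the RefSeq promoter table. The table (assembly GRCm38.p6) held 7 of the 10 genes, all but Sds, Sdsl and Tdh. Each run gives the 250 bases before the gene's start, 5′ to 3′ on its own strand. Capitals mark a match to a motif searched, on either strand.
Shmt2 (chr10:127522445-127522694, minus strand): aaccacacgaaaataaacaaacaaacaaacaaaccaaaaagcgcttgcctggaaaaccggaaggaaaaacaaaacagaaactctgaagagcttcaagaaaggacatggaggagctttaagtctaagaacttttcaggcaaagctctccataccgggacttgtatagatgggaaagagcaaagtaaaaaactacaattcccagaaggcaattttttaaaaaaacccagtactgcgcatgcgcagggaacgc
Shmt1 (chr11:60811266-60811515, minus strand): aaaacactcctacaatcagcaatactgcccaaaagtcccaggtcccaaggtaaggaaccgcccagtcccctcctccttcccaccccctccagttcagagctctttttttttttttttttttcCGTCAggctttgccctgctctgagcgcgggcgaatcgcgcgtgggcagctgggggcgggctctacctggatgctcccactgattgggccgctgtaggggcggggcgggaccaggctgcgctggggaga
The motifs were the full cAMP response element TGACGTCA and its shorter core TGACG (every full element also holds the core), the C/EBP-ATF composite element TGATGNAA and the FOXO site GTAAACA. Shmt1 held 1 core, on the opposite strand, 128 to 124 bases before its start. The 250 bases of Gldc, Amt, Gcsh, Shmt2, Phgdh and Psat1 (both starts) held none of the 4. Among all 32851 windows of this length, 17.8% held the core, 1.55% the full element, 3.45% the composite element and 3.17% the FOXO site. A match says only that these letters occur there.

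The glycine cleavage genes did not pass. Gldc, the decarboxylase that binds glycine, read 5.88, 5.99, 6.15, 5.21 and 6.09 across WT livers 1 to 5, and 5.12, 5.92, 6.09, 6.11 and 5.60 across KO livers 1 to 5. The low values were a WT female (WT 4) and both KO males (KO 1 and KO 5), so the groups overlap. The log2 fold change was -0.13 (SE 0.22, 95% interval -0.61 to 0.34, adjusted p = 0.785). Gcsh, which carries the glycine residue between the subunits, went from 1.70 ± 0.12 to 1.77 ± 0.16 (SD, n = 5 each; 0.07, SE 0.09, 95% interval -0.13 to 0.27, adjusted p = 0.736). Both intervals are for the average over the sexes, and that of Gldc still allows a fall of 0.61.

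Tdh, the mitochondrial dehydrogenase that sends threonine towards glycine, averaged 0.06 ± 0.16 in the WT group and 0.15 ± 0.07 in the KO group (SD, n = 5 each). The groups overlap, and the log2 fold change was 0.11 (SE 0.08, 95% interval -0.07 to 0.29, adjusted p = 0.516). Its signal was low, with net Cy5 of 64.6 to 228 across the livers. Of the 2 routes of threonine breakdown measured, Sds thus fell and Tdh did not pass.

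For the synthesis genes the liver signal was far below the reference at every probe. Phgdh, the first enzyme of serine synthesis, went from -3.83 ± 0.10 to -3.98 ± 0.13 at the probe that stood for the gene (SD, n = 5 each). Its log2 fold change was -0.18 (SE 0.07, 95% interval -0.34 to -0.02, adjusted p = 0.188). The other 2 probes of Phgdh gave 0.11 and 0.01, with adjusted p-values over probes of 0.596 and 0.961, so the probes disagree in sign. The first passed as a fall in the scanner's log ratio (adjusted p = 0.021) and in Cy5 alone (adjusted p = 0.0162), 2 of 25 settings.

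Psat1, the transaminase that follows Phgdh, read -5.37, -5.15, -5.65, -5.05 and -4.96 across WT livers 1 to 5, and -4.93, -5.35, -5.18, -4.99 and -4.69 across KO livers 1 to 5. The groups overlap, with 2 KO livers, both males, above all WT livers. The log2 fold change was 0.26 (SE 0.13, 95% interval -0.02 to 0.55, adjusted p = 0.281), and it did not pass in any of 25 settings. Net Cy5 of Psat1 was 50.2 to 185.

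Within slides, where WT and KO arrays share a glass slide, the 3 falls kept their direction. Sds was -1.53 within slide 1 and -1.59 within slide 3, Sdsl -0.95 and -0.69, and Shmt2 -0.36 and -0.32. With slide as a fixed block they were -1.53 (adjusted p = 0.000869), -0.85 (adjusted p = 0.0021) and -0.35 (adjusted p = 0.0457). KO 3, KO 4 and WT 5 shared no slide with the other genotype, so these fixed-block effects also rest on slides 1 and 3. All 3 falls passed with slide as a random block too. Slide 1 held 2 livers of each genotype and slide 3 held 1 KO liver, so the within-slide values carry no test. They are plain differences of means with no sex term. On slide 3 the KO liver was male and both WT livers were female, so genotype and sex cannot be told apart there. On slide 1 both WT livers were male, while KO 1 was male and KO 2 female.

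Sex was examined because the livers of both genotypes came from males and females. With the same model, 0 of the 9 enzymes differed between the sexes, while 4.99% of all genes were higher and 6.55% lower in females by the same limma test. At an unadjusted p under 0.05 there was 1 of 9, Shmt1, against 24.7% of all genes. Shmt1 was 0.29 higher in females (SE 0.11, limma adjusted p = 0.132). Sds was 0.34 higher in females (SE 0.16, adjusted p = 0.223) and Psat1 0.28 higher in males (female minus male -0.28, SE 0.13, adjusted p = 0.216).

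The KO effect was then taken within each sex. For Sds, WT livers averaged 6.66 ± 0.31 in 2 females and 6.63 ± 0.23 in 3 males, and KO livers 5.53 ± 0.25 in 3 females and 4.87 ± 0.27 in 2 males (SD). The WT sexes differed by less than their spread, while both KO males were below all 3 KO females. The KO effect was -1.13 (95% interval -1.56 to -0.70) in females and -1.76 (-2.19 to -1.33) in males, a difference of 0.63 (SE 0.28, limma adjusted p = 0.388). Sdsl fell by 0.60 in females and 0.89 in males, a difference of 0.30 (SE 0.15, adjusted p = 0.452).

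Gldc had the largest difference between the sexes among the 9. Its WT livers averaged 5.68 ± 0.66 in 2 females and 5.99 ± 0.11 in 3 males, and its KO livers 6.04 ± 0.11 in 3 females and 5.36 ± 0.34 in 2 males (SD). The KO effect was 0.36 (95% interval -0.15 to 0.87) in females and -0.63 (-1.14 to -0.12) in males, and the difference of 0.99 (SE 0.33) did not pass after adjustment over all genes (limma adjusted p = 0.292). The 2 WT females lay far apart, at 6.15 and 5.21, and the value hangs on them. The reference was dim at the Gldc probe and differed between these 2 arrays, with net Cy3 of 68.4 on WT 3 and 144 on WT 4, beside net Cy5 of 6648 and 4560. KO 1, the lowest KO liver, had the highest net Cy3, 166. The part of the reference signal in these values was not tested. Without WT 3 the difference was 1.46 (adjusted p = 0.0457), the one setting in which an enzyme passed, and without WT 4 it was 0.52 (adjusted p = 0.511). Gcsh had KO effects of 0.27 (95% interval 0.05 to 0.49) in females and -0.14 (-0.36 to 0.09) in males, a difference of 0.41 (SE 0.14, limma adjusted p = 0.314). In all, 0 of the 9 passed this limma interaction test (0.0317% of all genes did), and 3, Sds, Gldc and Gcsh, had an unadjusted p under 0.05 (12.5% of all genes did).

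**Figure D3:**
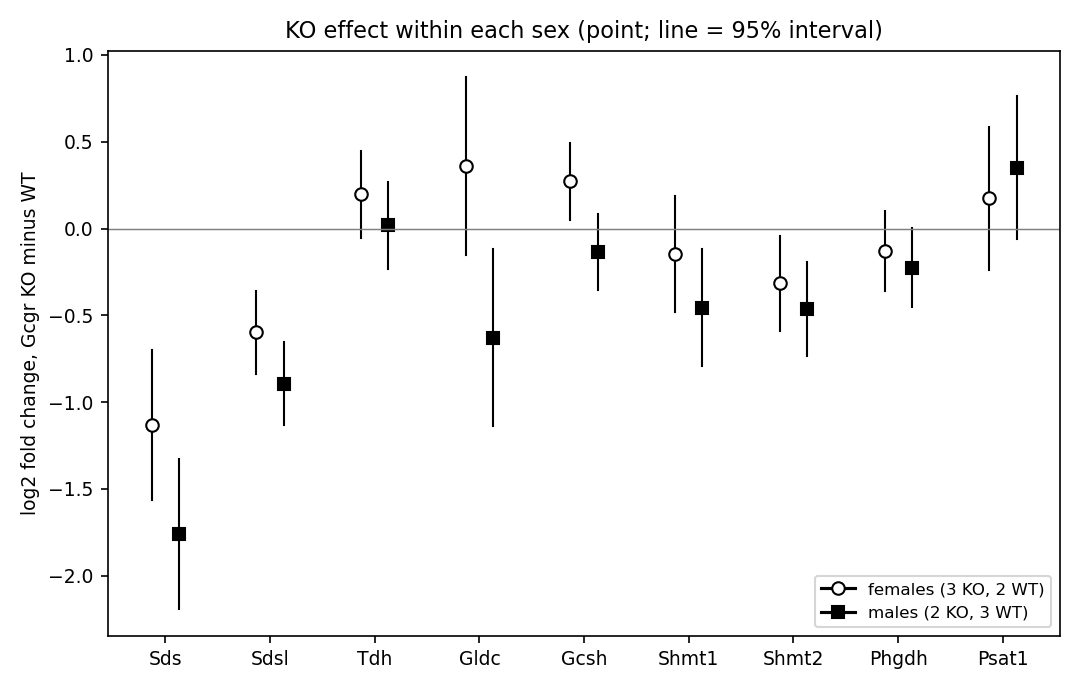
KO minus WT log2 fold change of each enzyme in females (open circles, 3 KO and 2 WT) and in males (squares, 2 KO and 3 WT), with 95% intervals from the limma interaction model. Sds, Sdsl and Shmt2 lie below 0 in both sexes; the Gldc points lie at 0.36 and -0.63, and no difference between the sexes passed after adjustment.

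The genes whose log2 ratios over the 10 livers were most like those of Sds were Pde4b, a cAMP phosphodiesterase (Pearson r = 0.986), a transcript named ENSMUST00000057459 in the files (0.972), the growth factor gene Nrg4 (0.972), the chromatin protein gene Hmgn2 (0.968) and Lrtm1 (0.964). All 5 had every KO liver below every WT liver, so much of the likeness is the gap between the genotypes, and the livers also share slides. Their log2 fold changes were -1.70, -0.43, -0.80, -0.39 and -3.43. Pde4b breaks down cAMP, the messenger that glucagon raises. Among the 9 enzymes themselves, once genotype and sex means were taken out, Sds followed Gldc most closely over the 10 livers (r = 0.873). This was the highest value of all pairs. Sds was at 0.679 with Shmt2, 0.601 with Shmt1 and 0.237 with Sdsl. At both the Sds and the Gldc probe, net Cy3 of the dim reference was highest among WT arrays on WT 4 (197 and 144). The part of the reference in this likeness was not tested, and the correlations are descriptions with no test.

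The other genes that handle these amino acids were taken from 4 lists of 46 genes, of which 44 were tested. Mthfd2l had no matched probe and Slc7a10 was below the signal filter. Of the 44, 11 were lower and 1 was higher in KO livers, against 3.08% and 2.88% of all genes, and their median log2 fold change was -0.11. In 9 of the 44 every KO liver lay below every WT liver, against 3.08% of all genes. In 1, Slc6a9, every KO liver lay above, and the share of all genes with that pattern was not counted. These genes were listed with earlier results of these data known, so their counts are a description.

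Transport held most of the calls, with 6 of 12 tested genes lower and 1 higher. Slc38a4, a sodium-coupled importer of neutral amino acids in liver, went from 6.92 ± 0.15 to 5.99 ± 0.17 (SD, n = 5 each; log2 fold change -0.91, SE 0.10, adjusted p = 0.000411). The lowest WT liver was at 6.68 and the highest KO liver at 6.23. Slc36a1, a proton-coupled transporter of glycine and other small amino acids, went from 1.40 ± 0.15 to 0.58 ± 0.12 (-0.79, SE 0.08, adjusted p = 0.000281). Sfxn2, a mitochondrial sideroflexin, went from 2.03 ± 0.26 to 1.40 ± 0.18 (-0.70, SE 0.09, adjusted p = 0.00123). Smaller falls were in the serine exchanger Slc1a4 (-0.52, adjusted p = 0.00738), the mitochondrial glycine carrier Slc25a38 (-0.36, adjusted p = 0.0106) and the glutamine transporter Slc38a3 (-0.32, adjusted p = 0.0372). With median centring in place of loess the calls of Slc36a1 (-0.60, adjusted p = 0.0604), Slc1a4 (-0.36, adjusted p = 0.275) and Slc25a38 (-0.24, adjusted p = 0.518) were lost. With outlier spots removed after normexp those of Slc38a4 (-0.71, adjusted p = 0.324) and Slc25a38 (-0.31, adjusted p = 0.135) were lost. Slc38a3 passed in 11 of 25 settings, with values from -1.32 (Cy5 alone) to -0.21 (the scanner's log ratio), and when 1 liver was left out it kept its call without WT 2, WT 4 or KO 3. Second probes of Slc38a4, Sfxn2 and Slc1a4 also passed, at -0.77, -0.78 and -0.73. Within slide 1 and slide 3 the log2 fold change of Slc38a4 was -1.04 and -0.91, that of Slc36a1 -0.91 and -0.62, and that of Sfxn2 -0.46 and -0.92. The within-slide values have no sex term, and the female minus male difference of Sfxn2 was 0.33 (limma adjusted p = 0.0365).

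Slc6a9, a glycine transporter, was the one pathway gene that rose. It averaged 0.55 ± 0.17 in the WT group and 1.11 ± 0.20 in the KO group (SD, n = 5 each), with KO livers from 0.88 to 1.35, above all WT livers. The log2 fold change was 0.60 (SE 0.10, adjusted p = 0.00454). Without a sex term it was 0.66 within slide 1 and 0.78 within slide 3.

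Of 17 genes that use glycine or serine, 4 were lower and none higher. They were Agxt2, a mitochondrial glyoxylate aminotransferase (-0.45, SE 0.10, adjusted p = 0.0225), the sarcosine dehydrogenase Sardh (-0.45, SE 0.10, adjusted p = 0.027), the creatine synthesis enzyme Gamt (-0.38, SE 0.09, adjusted p = 0.026) and Cbs, which joins serine to homocysteine (-0.35, SE 0.08, adjusted p = 0.0313). The median of the 17 was 0.00136, and Gatm, the step before Gamt, was at 0.37 (adjusted p = 0.0616). All 4 calls were close to the threshold, and each was lost in 6 to 11 of 25 settings. Leaving out KO 1, KO 2 or KO 5 ended the call of each of the 4, as did leaving out WT 4 for Sardh, WT 3 for Gamt, and WT 2, WT 3 or KO 4 for Cbs. Over these settings Agxt2 ranged from -0.62 to -0.06 and Cbs from -0.93 to -0.14. Agxt2 was -0.95 within slide 1 and 0.01 within slide 3. These 2 values have no sex term, and slide 3 sets a male KO liver against female WT livers. The female minus male difference of Agxt2 was -0.45 (limma adjusted p = 0.0144), and the part of sex was not tested. Sardh and Cbs held every KO liver below every WT liver, and Agxt2 and Gamt held 3 KO livers there.

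Of 11 genes of folate one-carbon metabolism, Mthfd1, the cytosolic trifunctional enzyme, was lower (-0.45, SE 0.08, adjusted p = 0.0103). Its second probe gave -0.31 and did not pass (adjusted p = 0.106), and the first probe gave -0.16 within slide 1 and -0.96 within slide 3. The within-slide values have no sex term, and the female minus male difference of Mthfd1 was 0.39 (limma adjusted p = 0.0112). The call was lost with outlier spots removed after normexp (adjusted p = 0.0943), median centring (0.31), no sex term (0.19) and slide as a fixed block (0.0504). None was higher. The median of the 11 was -0.14. None of the other 4 serine and threonine steps passed. The smallest p among these was that of Psph, the last step of serine synthesis, at 0.20 (SE 0.11, limma adjusted p = 0.353).

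**Figure D4:**
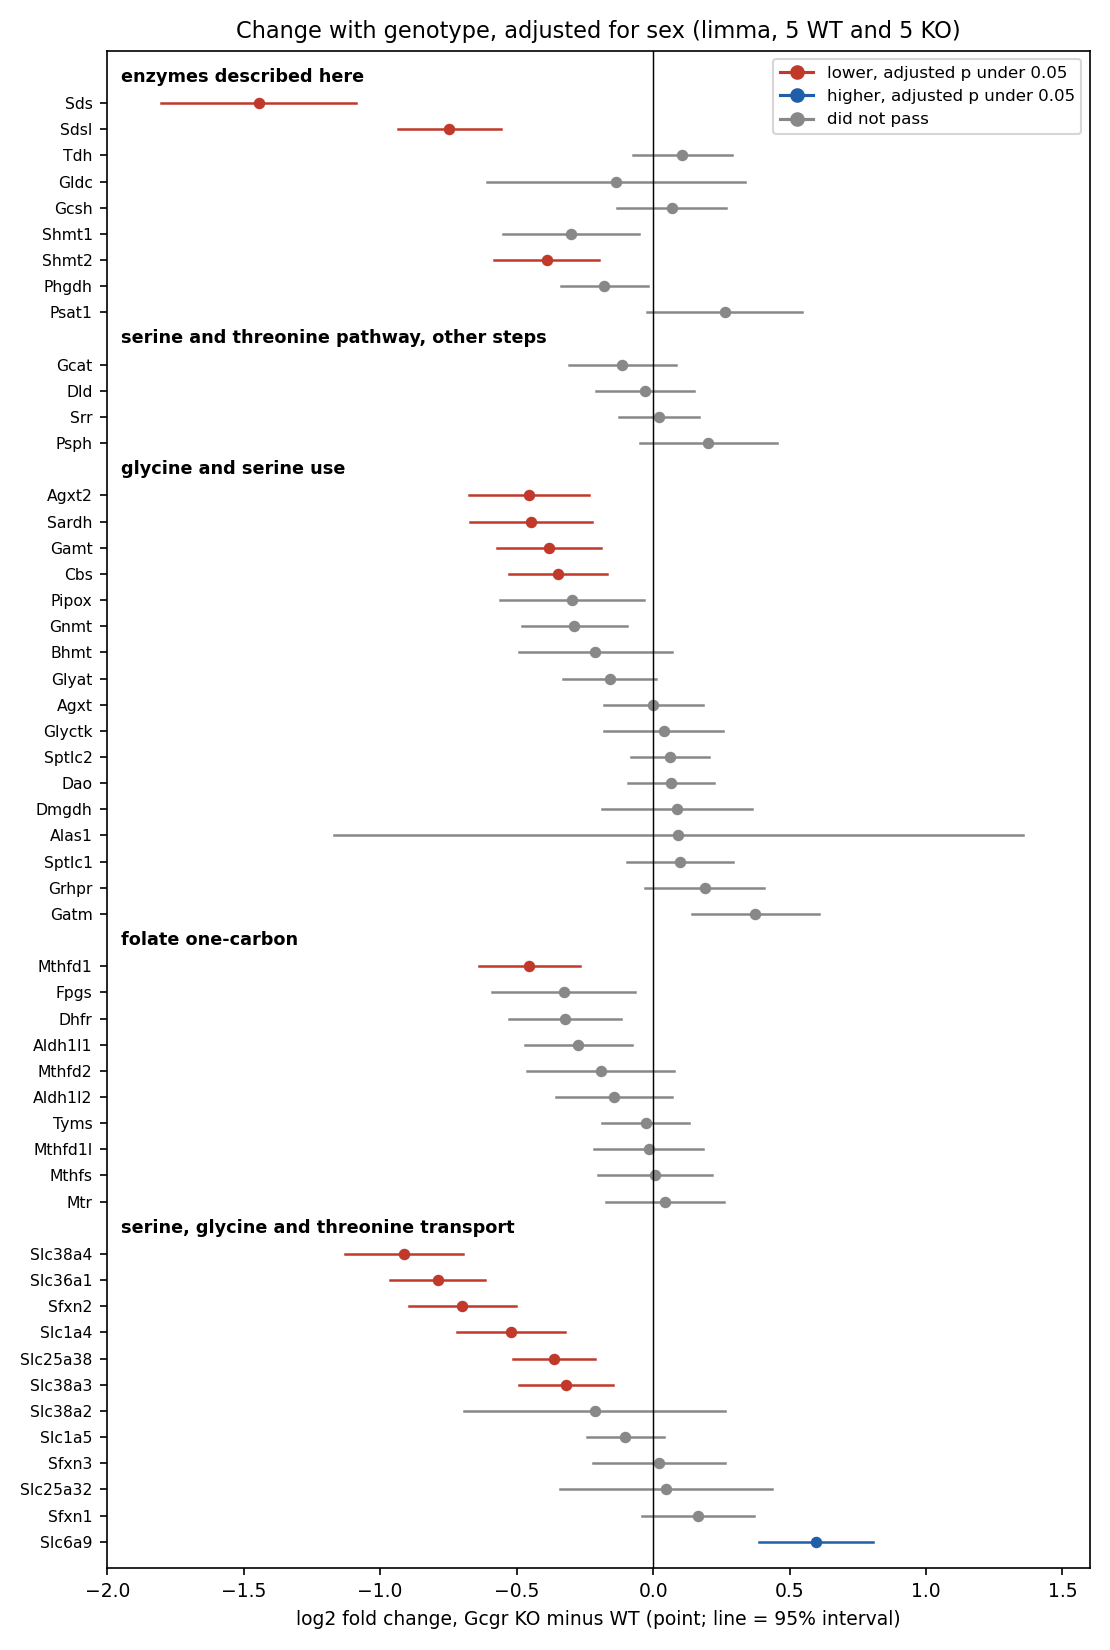
KO minus WT log2 fold change with its 95% interval (limma, sex in the model) for the 9 enzymes and the other pathway genes tested, less 1 not reported here, by list; red is lower, blue higher and grey did not pass. Sds has the lowest value, Slc38a4, Slc36a1 and Sfxn2 lead the transport list, and Slc6a9 is the one blue point.

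By sex, 10 of the 44 passed. Gatm, Mthfd1, Mthfs and Sfxn2 were higher in females, 4 of 44 against 4.99% of all genes. Psph, Agxt, Agxt2, Grhpr, Mthfd2 and Slc1a4 were lower, 6 of 44 against 6.55% of all genes. The largest were Mthfs (0.63, adjusted p = 0.00126), which recycles a folate form, and the glyoxylate reductase Grhpr (-0.56, adjusted p = 0.00345). No gene of the 44 passed the limma interaction test (0.0317% of all genes did), and 9 had an unadjusted p under 0.05 (12.5% of all genes did).

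**Figure D5:**
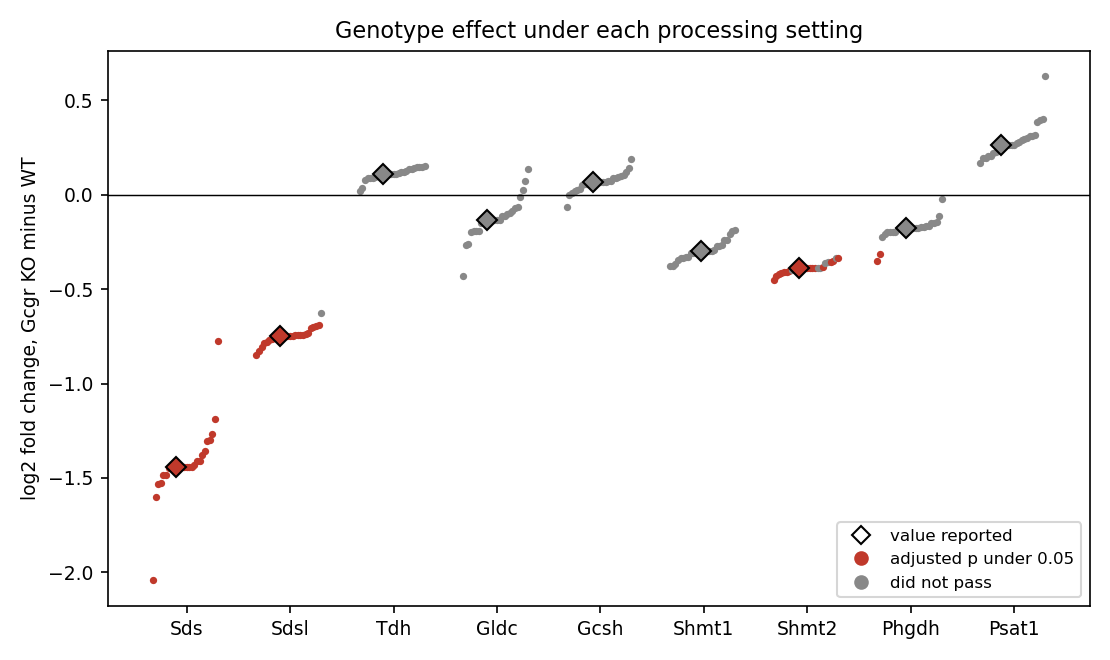
Log2 fold change, KO minus WT, of each enzyme as reported (diamond) and under 25 alternative settings (points in order of value; red, adjusted p under 0.05; grey, did not pass). Sds ranges from -2.04 to -0.77 and passes throughout, Sdsl loses 1 setting and Shmt2 loses 6. Aquantile scaling between arrays leaves log ratios unchanged and repeats the reported values.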

How the data were processed

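RNA of 10 livers was measured on 2-colour Agilent mouse arrays and extracted, per the submitters' processing notes, with Agilent Feature Extraction 10.7. Per the file headers, the deposited columns used here, mean spot signal and median local background, are linear intensity values before any correction, and the deposited LogRatio is the software's log10 ratio of processed Cy5 over Cy3. The authors' value table is on a log2 scale in the direction liver over reference, found by setting it against each array (r of 0.9994 to 0.9996, slopes of 0.998 to 1, column medians of 0.00776 to 0.023). Its background correction and normalisation are not given in the sources used here. Dyes were not swapped.

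Outlier-flagged spots (169 to 291 per array) were removed, means were corrected with normexp (offset 50), and log2 ratios were normalised by loess with 1639 control spots at weight 0. The offset compresses ratios. A probe was kept where the scanner flagged its Cy5 as well above background on 4 or more of 10 arrays, and the probe with the highest mean Cy5 stood for a gene (18921 genes). Names came from RefSeq (GRCm38.p6). Fits used limma 3.58.1 in R 4.3.3 with genotype and sex, or with their interaction, Benjamini-Hochberg adjustment over all genes and a threshold of 0.05; the scripts were tested on simulated data. Alternatives were other corrections, normalisations, filters, probe rules, blocks, the scanner's log ratio, the authors' table, Cy5 alone, and leaving out each liver. Named were all enzymes with every probe, the pathway genes that passed, the one with the smallest p in a list where none passed, Gcgr, and the 5 genes most correlated with Sds. Neighbours of Sds, and further genes outside this rule (Gatm and those that differed by sex), were named after their values were seen. The values of 1 gene of the folate list are not reported here. The enzymes and the gene lists were chosen with earlier results of these data known.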

Additional observations from a re-analysis of the deposited data

Results flagged for a closer look

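Among 44 groups of 5 livers examined (both genotypes of the 9 enzymes, of the 12 other pathway genes that passed, and of Psph), 2 held a liver far from the other 4, and chance gives about 1 in 20 groups. Gldc in WT 4 was at 5.21, with the nearest WT liver at 5.88, a gap of 0.714 of the group's range. Sardh in WT 5 was at 4.36, with the nearest WT liver at 4.01, a gap of 0.746 of the range. Without WT 4 the log2 fold change of Gldc was -0.43.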

How the results depend on the processing

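Of 25 alternative settings with a test, Sds passed in 25, Sdsl in 24 and Shmt2 in 19. Aquantile scaling between arrays leaves log ratios unchanged, so its outcome was fixed by the main fit. For Sds, Sdsl and Shmt2 the filter and probe rules also kept the reported log2 fold change and moved only the p-value. The count of enzymes called was 1 with median centring in place of loess, and 2 to 3 over the 10 fits that left out 1 liver. The count of pathway genes called, 12 as reported, was 5 with outlier spots removed after normexp, 3 with median centring, and 7 to 14 without 1 liver (7 without KO 1 or KO 2). Over all genes the calls numbered 1127, of which 48.4% were higher, and with median centring 279, of which 72% were higher. The interaction count was 0 to 1 without 1 liver.

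The replicate numbers are not stated to pair the livers. Number 2 joins a male to a female. Once genotype and sex means were taken out, same-numbered livers correlated at -0.31 to 0.25. No WT liver was then most like the KO liver of its own number. Taking out both means forces the summed remainders of WT and KO livers of the same sex to opposite signs. These correlations therefore cannot show whether the livers were paired. With the replicate number as a block, 2 enzymes and 3 pathway genes passed, all lower. Shmt2 (-0.40, adjusted p = 0.129) and Slc6a9 (0.55, adjusted p = 0.0557) did not pass there.

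Values that changed sign had not passed as reported, apart from Agxt2, which was 0.0116 within slide 3, where genotype and sex cannot be told apart. Within slide 1 Tdh was -0.0432, Psph -0.18 and Gcsh -0.0877, and within slide 3 Gcsh was -0.0306. Gldc was 0.14 with outliers removed later, 0.027 in Cy5 alone and -0.43 to 0.0723 without 1 liver. Gcsh was -0.0649 with slide as a fixed block. Of the female minus male differences, Sds was -0.000891 and Sdsl -0.0297 in the scanner's log ratio. Sdsl was -0.00117 in the authors' table, -0.0588 with slide as a fixed block, -0.00304 with slide as a random block, -0.26 with the replicate block and -0.0552 to 0.0612 without 1 liver. Phgdh was -0.00016 with probes averaged. Gcsh was -0.00035 with slide as a fixed block, -0.13 with the replicate block and -0.0389 to 0.0909 without 1 liver, and Gldc was -0.0239 to 0.48 without 1 liver. The cause was not tested. With 5 livers a group, 2 or 3 of each sex, differences between the sexes are measured with little precision. The reference was dim at the Sds and Gldc probes, and its part in the size of their fold changes was not tested.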
